A study of Mus musculus with 4 samples.

Results

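The genes described here are the receptors of the PPAR (peroxisome proliferator-activated receptor) family with their partners, the enzymes and carriers of mitochondrial and peroxisomal fatty acid oxidation, and known targets of PPARα. The list holds 41 genes, given by name and put together with earlier results of these data known. Of these, 39 were measured by a probe whose only gene symbol was that gene, and they were covered by 42 of the 23521 probes that carried a single symbol (22180 genes). Cyp4a10 was covered only by probes that also named a neighboring gene, and Acsl1 by no probe with a single symbol in the platform annotation. Ileum and liver came from male C57BL/6J mice, bought at an age of 4 weeks and kept for 7 days before they received a diet with 50% of energy as fat for 12 weeks, with cellulose in the control group or with paramylon (PM), an insoluble beta-glucan of Euglena gracilis EOD-1, in the PM group. Liver and ileum close to the cecum were taken after 8 h of fasting, and the amount of PM was set to match the fiber of the control diet. RNA of the 10 mice of a group was mixed in equal parts and hybridized to 1 array per tissue, 4 arrays in all, so the spread between mice could not be seen and no test between the groups was possible. In a mixture of RNA, fewer cells of a type and less RNA per cell cannot be told apart.

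PPARα is a nuclear receptor that is activated by fatty acids and binds DNA together with RXRα, at direct repeats of the hexamer AGGTCA with a base between them. In the liver it switches on uptake, activation and oxidation of fatty acids and the making of ketone bodies in fasting, and it also acts in enterocytes, where dietary fat is its source of ligands. Fatty acids are activated to acyl-CoA, carried into mitochondria by the carnitine shuttle and shortened there step by step, while very long chains are shortened first in peroxisomes. Microsomal CYP4A enzymes hydroxylate the far end of fatty acids, and acyl-CoA thioesterases release the free acid again.

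The unit throughout is the log2 expression value that the authors deposited, and a difference is the log2 value of the PM group minus that of the control group in the same tissue. The thresholds were a fold of 1.3 and a fold of 0.77 of PM over control. None of the 39 genes passed either threshold in either tissue. Of all 22180 genes, 0.564% were above 1.3 and 0.744% below 0.77 in the ileum, while the liver had 0.541% and 0.424%. At such shares a count of 0 among 39 genes is near the background and is no result about the list. The values were exactly identical on both ileum arrays for 69.7% of all genes and on both liver arrays for 71.2%, and for the list the same held for 18 of 39 (ileum) and 17 of 39 (liver). Values also repeated among probes, with 15178 to 17687 distinct values per array over 41345 probes. How so many values came to be identical is not known, so an identical value is given as deposited and is not evidence that a gene did not differ. The list therefore had a median difference of 0 in both tissues, like all genes together, with a mean of -0.02 (ileum) and 0.03 (liver). Since replicates are lacking, each difference was set beside the central 95% of differences of all genes in the same decile of level, a range that holds biology and noise together. Over all probes the median log2 value was 3.98 for either ileum array and 2.75 for either liver array, so log2 levels were compared only within a tissue.

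**Figure D1:**
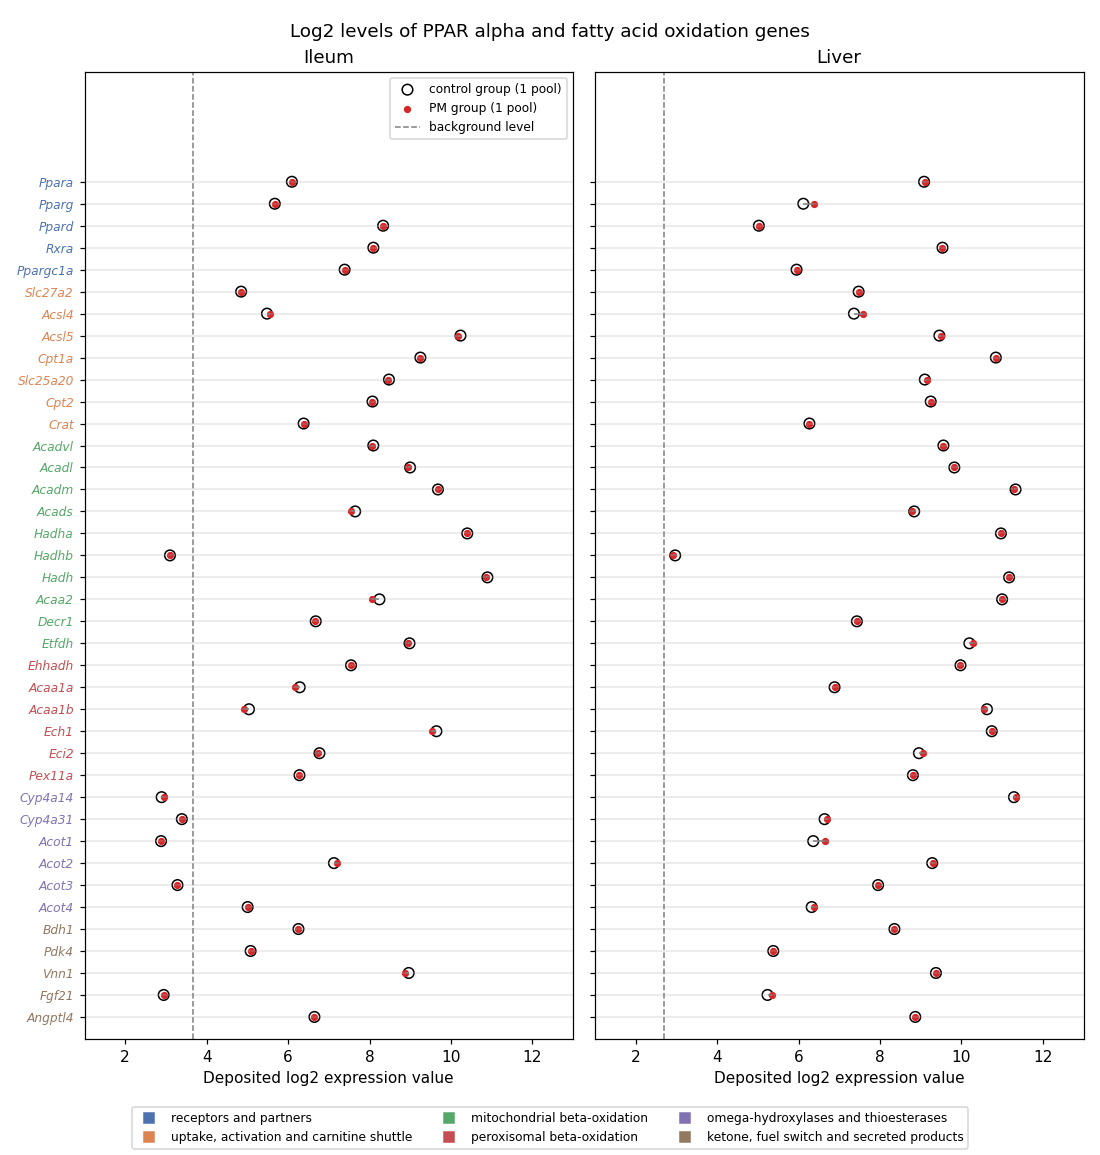
Deposited log2 expression value (x axis) of each of the 39 measured genes (y axis, colored by role) in the ileum and the liver. Open circles are the control group and red points the PM group, each 1 pool of 10 mice, and the dashed line is the background level (3.67 in the ileum, 2.70 in the liver). The points lie on or next to the circles for nearly all genes, with the widest gaps in the liver for Acot1, Pparg and Acsl4 and in the ileum for Acaa2.

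Tissue identity was checked by markers. In the ileum the enterocyte genes Vil1 and Cdh17 lay at log2 values of 11.53 and 11.50 in both groups, and the bile acid transporter gene Slc10a2 of the distal ileum at 10.56 (control) and 10.72 (PM), while albumin (Alb) lay at 3.05, under the background level. In the liver Alb lay at 12.96 in both groups and Vil1 at 2.38, under the background level. Other markers of these lists did not separate the tissues. Of 7 hepatocyte markers 4 lay above background on both ileum arrays, among them Apoa1 (11.17 in the control group) and Cps1 (10.18). Of 6 enterocyte markers 3 lay above background on both liver arrays, among them Apoa4 (11.12 in the control group) and Fabp2 (9.73). The ileum pools differed in markers of other regions and organs. All 5 measured markers of cecum and colon were below 0.77, with a summed linear signal of 1174 in the control group and 63.9 in the PM group. Retnlb (9.13 to 4.66) and Mptx1 (8.94 to 3.98) made up most of the control sum. Only these 2 of the 5 lay above background on both arrays, as Car1, Aqp8 and Insl5 lay under it in the PM group. Of 10 markers of pancreatic acinar cells 9 were below 0.77, with summed signals of 569 and 134. Of 9 markers of proximal enterocytes 6 were below 0.77, with 3387 and 1851, and none of 4 markers of distal enterocytes passed a threshold.

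Most receptor genes had identical deposited values in the ileum. Ppara, the receptor that gives the list its name, had a log2 value of 6.09 in both groups there. Pparg, which is best known from adipocytes, had 5.67 in both, and Ppard, the family member of wide tissue distribution, 8.33 in both. Rxra, the partner of all 3 receptors, had 8.09 in both groups, and Ppargc1a, a coactivator that drives mitochondrial genes, went from 7.39 to 7.41. The probes with a single symbol thus gave the same value for 4 of these 5 genes in the ileum. A further probe, which names Ppard together with another gene and was not used here, went from 5.18 to 5.02 in the ileum (difference -0.16). In the liver it was identical at 2.81. Its signal cannot be assigned to a single gene.

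In the liver, Pparg had the largest difference among the receptor genes. Its log2 value was 6.12 with cellulose and 6.37 with PM, a difference of 0.25 (fold 1.19), and the central 95% of genes of like level ran from -0.11 to 0.20. Ppara itself went from 9.08 to 9.11 (difference 0.027), Rxra from 9.54 to 9.53, and Ppard and Ppargc1a were identical at 5.03 and 5.95. Pparg was therefore the receptor gene that lay outside its like-level range, and Ppara lay near the center of its own. Pparg, Acsl4 and Acot1 were the 3 of 39 genes outside such a range in the liver, where 5.05% of all genes were. Of 6 measured adipocyte markers, Fabp4 went from 5.20 to 5.64 in the liver and was the only one above 1.3, while Adipoq and Lep lay under the background level in both groups at 2.14 and 2.24. The summed linear signal of these 6 markers was 199.6 in the control group and 219 in the PM group, and their part in the Pparg value was not tested. Of 6 macrophage markers in the liver none was above 1.3, but 2 lay outside their like-level range as Pparg did, Cd68 going from 6.24 to 6.45 (difference 0.22) and Csf1r from 6.84 to 7.05 (0.21). Their summed signal was 514 and 548, and their part in the values of Pparg and Acsl4 was not tested either.

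Genes of uptake, activation and the carnitine shuttle differed little in the ileum. Acsl5, an acyl-CoA synthetase of enterocytes, went from a log2 value of 10.23 to 10.18, and Acsl4, the synthetase that prefers arachidonic acid, from 5.48 to 5.56. Cpt1a, the rate-controlling enzyme of entry into mitochondria, had 9.25 in both groups, and Cpt2, its counterpart at the inner membrane, 8.07 in both. Slc25a20, the carrier that moves acylcarnitine across the inner membrane, went from 8.48 to 8.47. Of the 7 genes of this role, 2 were higher, 3 lower and 2 identical.

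In the liver Acsl4 was the gene of this role with the largest difference. It went from a log2 value of 7.36 to 7.59, a difference of 0.23 beside a like-level range of -0.10 to 0.18. Acsl5 went from 9.46 to 9.51 and Slc25a20 from 9.10 to 9.15. Cpt1a went from 10.85 to 10.84, and Cpt2 was identical at 9.25. Within this role the larger liver difference thus lay at 1 of the synthetases and not at the shuttle genes.

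A pair of genes of this role had 2 probes each, whose levels disagreed. For Slc27a2, a fatty acid transporter and very long-chain acyl-CoA synthetase, the brighter probe had a log2 value of 11.82 in both liver groups and the dimmer 3.13. In the ileum the same probes went from 7.04 to 7.07 and from 2.66 to 2.59, opposite ways, and the dimmer lay under the background level. For Crat, carnitine acetyltransferase, the probes had 7.93 and 4.60 in both liver groups, and in the ileum went from 7.49 to 7.51 and from 5.27 to 5.26. The mean of such probes stands for the gene elsewhere in the text, and its sign in the ileum has no weight for these genes.

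In the ileum, genes of mitochondrial beta-oxidation were lower with PM or identical, by small amounts. Of the 10 that were measured, 7 were lower, 3 identical and 0 higher, against 14.5% lower and 15.7% higher among all genes. Most of the 10 lay in the top decile of level, where 22.1% of all genes were lower and 25.3% higher. The lowest of the 10 was Acaa2, a thiolase of mitochondrial chain shortening, at log2 values of 8.24 (control) and 8.05 (PM). Its difference was -0.19 and its fold 0.877. Acads, the acyl-CoA dehydrogenase for short chains, went from 7.65 to 7.54 (-0.10). Acadl and Acadvl, the dehydrogenases for long and very long chains, had differences of -0.045 and -0.029, and Acadm, for medium chains, was identical at 9.68. Hadha, a subunit of the trifunctional protein, was identical at 10.40, and Hadh, the hydroxyacyl-CoA dehydrogenase, went from 10.90 to 10.87. Etfdh, which passes the electrons of the dehydrogenases on to the respiratory chain, went from 8.98 to 8.95. All 10 lay within the range of genes of like level. When the ileum arrays were quantile-normalized to each other, 9 were lower and 1 was higher. The summed linear signal of 6 general enterocyte markers went from 19679 to 17132, with 2 of them, Apoa4 and Fabp2, below 0.77 and Vil1 and Cdh17 identical. Apoa4 (11.16 to 10.26) is also among the proximal markers given above, so the sums of these lists overlap. Most markers of immune cells were higher. All 4 T cell markers were higher, with a summed signal of 270.6 and 309, as were 3 of 4 B cell markers, with 524 and 573. The 6 macrophage markers summed to 716 and 967, with Lyz2 at a fold of 1.62, 2 others higher, 1 lower and 2 identical. The part of these markers and of the regional ones above in the small differences of oxidation genes was not tested.

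In the liver the same 10 genes showed no common direction, with 2 higher, 4 lower and 4 identical. Etfdh went from a log2 value of 10.20 to 10.29 (difference 0.090), Acads from 8.84 to 8.78 (-0.060) and Acadm from 11.33 to 11.28 (-0.050). Acaa2, Acadl and Acadvl, lower in the ileum, were identical in the liver at 11.00, 9.83 and 9.56. Decr1, the dienoyl-CoA reductase for unsaturated chains, was identical at 7.43. With quantile normalization of the liver arrays 9 of the 10 were lower and 1 was higher, so the balance in the liver depends on the scaling. The probe of Hadhb, the other subunit of the trifunctional protein, read 3.10 in both ileum groups, under the background level, and 2.97 and 2.92 in the liver. Liver mitochondria are known to be rich in this protein, so the probe may not report the gene. Without Hadhb, 7 of 9 mitochondrial genes were lower and 0 higher in the ileum (9 lower with quantile normalization), and 3 were lower and 2 higher in the liver (8 and 1 with quantile normalization).

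**Figure D2:**
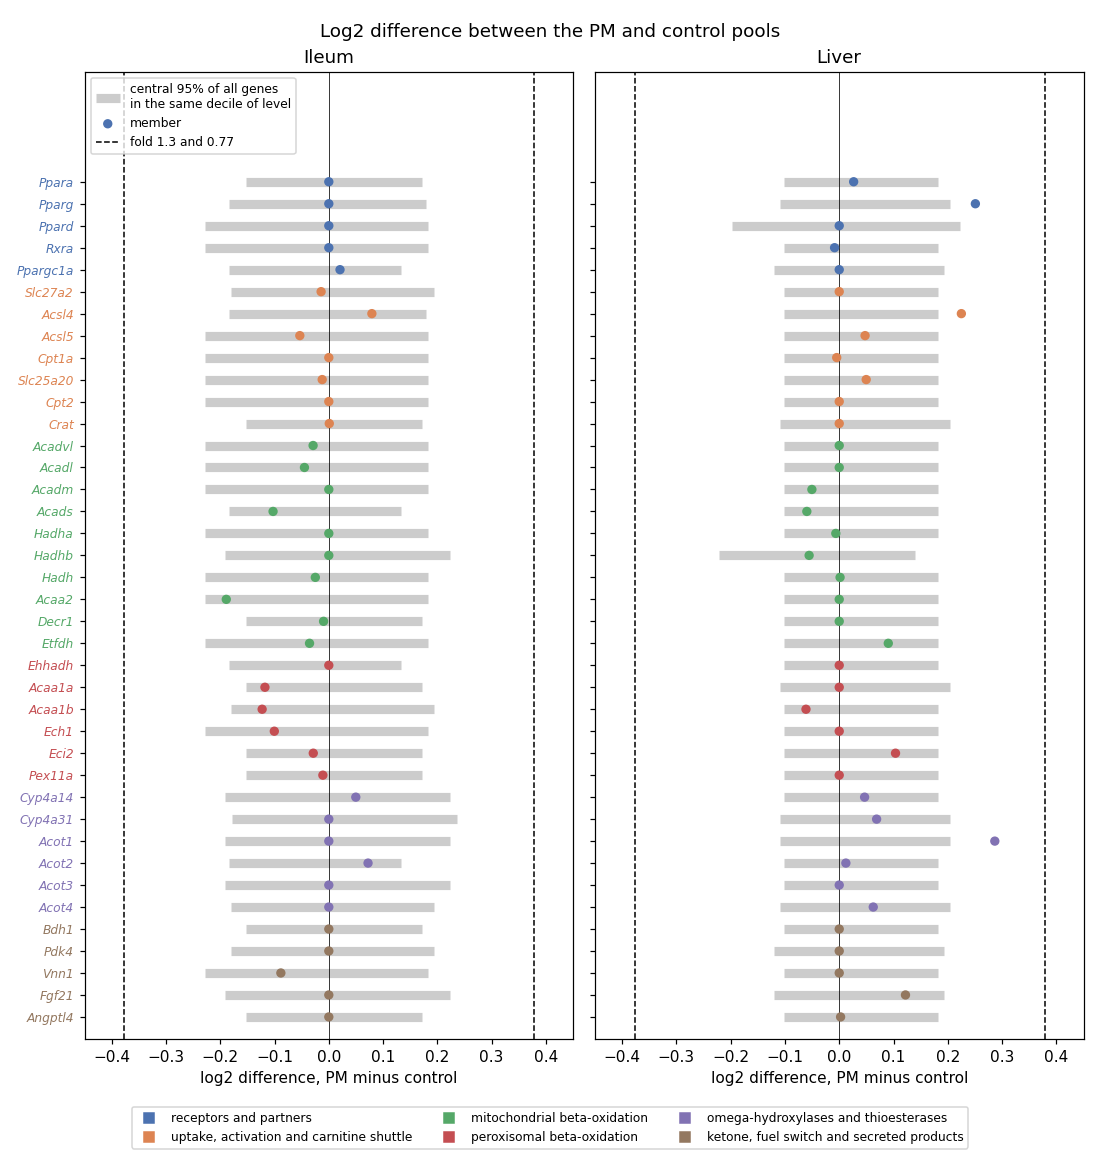
Difference of log2 values, PM minus control (x axis), of each of the 39 genes (y axis, colored by role) in the ileum and the liver, 1 pool per group. Gray bars are the central 95% of all genes in the same decile of level and dashed lines the 1.3 and 0.77 thresholds; every point lies between the thresholds, and Acot1, Pparg and Acsl4 in the liver lie to the right of their gray bars.

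Most peroxisomal genes were also lower with PM in the ileum. Of 6 genes, 5 were lower, 1 identical and 0 higher, against 14.5% lower and 15.7% higher among all genes, and with quantile normalization 4 were lower and 2 higher. Acaa1a and Acaa1b, which code for the peroxisomal thiolases, went from log2 values of 6.28 to 6.17 (difference -0.12) and from 5.04 to 4.92 (-0.12). Ech1, a dienoyl-CoA isomerase, went from 9.64 to 9.54 (-0.10). Eci2, an enoyl-CoA isomerase, had a difference of -0.029, and Pex11a, a membrane protein of peroxisome division, of -0.011, while Ehhadh, the bifunctional enzyme, was identical at 7.55. Acaa2, Acaa1b and Acaa1a had the lowest differences of the 39 genes in the ileum, a grouping made after their values were seen. All 6 peroxisomal genes lay within their like-level ranges.

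In the liver, 4 of the 6 peroxisomal genes were identical, among them Ehhadh at a log2 value of 9.98, Ech1 at 10.75 and Acaa1a at 6.89. Eci2 went from 8.96 to 9.06 (difference 0.10) and Acaa1b from 10.63 to 10.57 (-0.061). Quantile normalization gave 5 lower and 1 higher.

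The promoters of the thiolase pair are shown because both genes were lower in the ileum by about the same amount. The sequences are the RefSeq windows of GRCm38.p6, from 250 bases before to 50 after the start site, in lower case with any AGGTCA or its reverse complement TGACCT in capitals. The window of Acaa1a lies at chr9:119341044-119341343 on the plus strand and that of Acaa1b at chr9:119157044-119157343 on the minus strand. The Acaa1a window belongs to a start site inside the RefSeq gene, which begins at base 119341028. Neither window holds the hexamer.
Acaa1a: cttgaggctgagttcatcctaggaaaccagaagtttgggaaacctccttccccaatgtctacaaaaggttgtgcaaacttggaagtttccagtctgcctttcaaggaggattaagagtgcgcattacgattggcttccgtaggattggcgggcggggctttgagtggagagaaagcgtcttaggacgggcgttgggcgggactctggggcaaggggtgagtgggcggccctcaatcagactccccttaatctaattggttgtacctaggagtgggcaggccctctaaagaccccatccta
Acaa1b: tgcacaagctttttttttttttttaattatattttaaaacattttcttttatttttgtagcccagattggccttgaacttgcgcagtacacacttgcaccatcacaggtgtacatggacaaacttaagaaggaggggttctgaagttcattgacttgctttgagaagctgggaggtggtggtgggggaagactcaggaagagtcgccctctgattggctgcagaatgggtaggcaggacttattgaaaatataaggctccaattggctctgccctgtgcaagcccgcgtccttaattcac

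In the liver, CYP4A and thioesterase genes were higher with PM or identical. Of the 6 that were measured, 5 were higher, 1 identical and 0 lower, where 15% of all genes were higher and 13.8% lower. All 6 lay in the top decile of level or the one below it. In these deciles 35.8% and 23.9% of all genes were higher, and 17.4% and 11.7% lower. Acot1, the cytosolic acyl-CoA thioesterase, had the largest difference of the 39 genes. It went from a log2 value of 6.36 to 6.65, a difference of 0.29 (fold 1.22), and the like-level range ran from -0.11 to 0.20. Its neighbors in the gene cluster on chromosome 12 differed less. Acot2, the mitochondrial enzyme, went from 9.28 to 9.30, and Acot3, a peroxisomal one, was identical at 7.95. Acot4, also peroxisomal, was read by 2 probes that went from 6.89 to 6.98 and from 5.76 to 5.80. Cyp4a14 and Cyp4a31, which hydroxylate fatty acids, went from 11.29 to 11.34 and from 6.64 to 6.71. With quantile normalization 4 of the 6 were higher and 2 lower.

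In the ileum the same group lay mostly under the background level. The log2 values of Acot1 (2.88 in both groups), Acot3 (3.28 in both), Cyp4a31 (3.39 in both) and Cyp4a14 (2.89 and 2.94) were all under 3.67. Above background were Acot2, which went from 7.13 to 7.20 (difference 0.072), and Acot4, at 5.01 in both groups. The liver difference of Acot1 therefore has no counterpart that could be measured in the ileum.

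The promoters of 3 genes of this cluster are shown because neighboring genes of 1 family had unlike differences in the liver. The window of Acot1 lies at chr12:84009252-84009551, that of Acot4 at chr12:84038129-84038428 and that of Acot3 at chr12:84051894-84052193, all on the plus strand of GRCm38.p6. The Acot4 window belongs to a start site inside the RefSeq gene, which begins at base 84037254. The window of Acot1, the gene with the largest difference, holds no AGGTCA, and those of Acot3 and Acot4 hold 1 each, both as TGACCT. The window of Acot2, not shown, holds 0 as well, and the liver difference of Acot2 was 0.012, so the hexamer did not follow the differences.
Acot1: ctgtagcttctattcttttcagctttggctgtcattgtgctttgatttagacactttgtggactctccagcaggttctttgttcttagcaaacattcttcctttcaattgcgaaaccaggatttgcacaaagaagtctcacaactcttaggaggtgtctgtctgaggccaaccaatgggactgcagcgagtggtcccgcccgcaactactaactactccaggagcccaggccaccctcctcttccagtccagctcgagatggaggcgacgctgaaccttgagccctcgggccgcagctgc
Acot4: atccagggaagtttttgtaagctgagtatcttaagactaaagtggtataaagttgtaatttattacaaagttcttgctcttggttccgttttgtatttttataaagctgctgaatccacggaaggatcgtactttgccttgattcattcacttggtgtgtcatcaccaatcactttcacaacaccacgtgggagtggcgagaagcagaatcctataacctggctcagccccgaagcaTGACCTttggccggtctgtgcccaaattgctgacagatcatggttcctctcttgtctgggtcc
Acot3: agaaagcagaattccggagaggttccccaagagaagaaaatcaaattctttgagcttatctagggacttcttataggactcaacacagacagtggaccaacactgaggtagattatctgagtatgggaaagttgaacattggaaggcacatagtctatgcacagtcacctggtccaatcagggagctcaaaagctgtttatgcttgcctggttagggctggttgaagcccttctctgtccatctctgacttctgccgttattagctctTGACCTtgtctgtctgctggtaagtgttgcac
The first promoter window of Pparg, at chr6:115360894-115361193 on the plus strand, is given as the receptor gene with the largest liver difference. It holds 1 AGGTCA, and the last of the 3 windows of Pparg holds none. The first window also begins within the RefSeq gene, which starts at base 115360879.
Pparg: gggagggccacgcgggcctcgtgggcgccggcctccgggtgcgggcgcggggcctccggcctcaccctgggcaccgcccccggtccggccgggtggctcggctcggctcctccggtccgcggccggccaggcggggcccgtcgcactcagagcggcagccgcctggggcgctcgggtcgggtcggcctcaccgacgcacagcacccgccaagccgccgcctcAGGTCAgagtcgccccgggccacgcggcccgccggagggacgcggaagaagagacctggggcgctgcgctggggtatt
Of the 41 genes, 33 had at least 1 window in the RefSeq table, 39 windows in all. AGGTCA on either strand was found in 10 of these 39 windows (25.6%) and in 16.3% of all 32851 windows of 300 bases. The 10 windows belong to 8 genes, and the 2 windows of Acot3 overlap and hold the same site. The full direct repeat (AGGTCA, any base, AGGTCA), on either strand, was found in 0 of the 39 and in 0.0396% of all windows, and the looser form with AGGNCA in place of each AGGTCA in 0 of the 39 and 0.381% of all. The full repeat also counts among the hexamer matches, and a window without them says nothing about binding elsewhere in the gene.

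Of the products that act on fuel choice or outside the cell, Pdk4, Bdh1 and Angptl4 were identical or nearly so. Fgf21 in the liver and Vnn1 in the ileum differed more. Pdk4, the kinase that shuts off pyruvate dehydrogenase in fasting, had log2 values of 5.08 in both ileum groups and 5.38 in both liver groups. Bdh1, which makes the ketone body beta-hydroxybutyrate, had 6.25 in both ileum groups and 8.36 in both liver groups. Angptl4, a secreted inhibitor of lipoprotein lipase, was identical in the ileum at 6.65 and went from 8.868 to 8.871 in the liver. The only difference among these 3 genes was thus 0.0025, that of Angptl4 in the liver. Fgf21, the fasting hormone of the liver, went from 5.24 to 5.36 there (difference 0.12, like-level range -0.12 to 0.19) and lay under the background level in the ileum at 2.94 in both groups. Vnn1, a pantetheinase, went from 8.96 to 8.87 in the ileum and was identical at 9.38 in the liver.

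**Figure D3:**
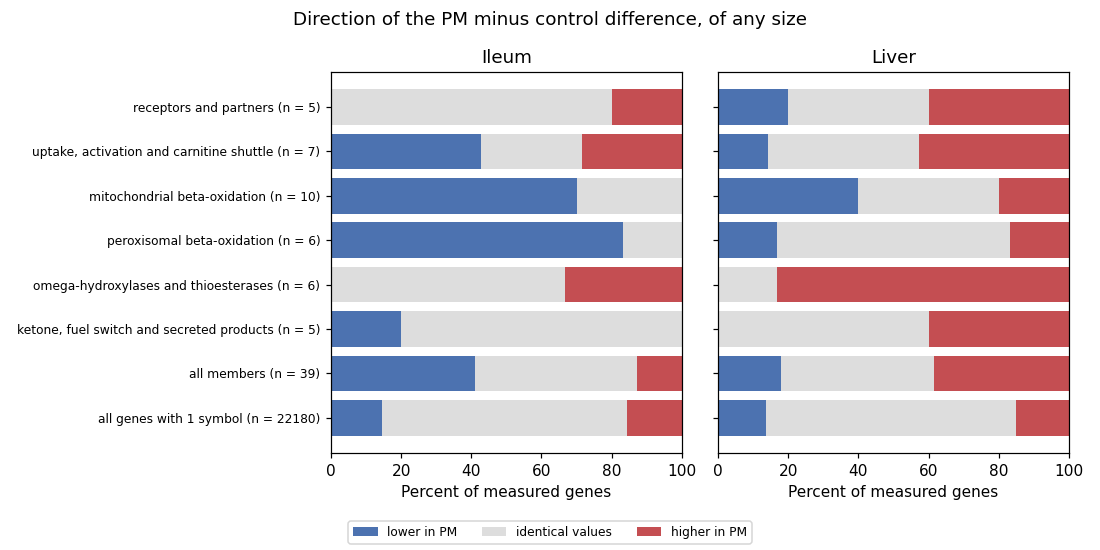
Percent of measured genes (x axis) that were lower in the PM group, identical or higher, for each role, for all 39 genes and for all 22180 genes with a single symbol (y axis), in the ileum and the liver. In the ileum no gene of mitochondrial or peroxisomal beta-oxidation is higher, though with quantile normalization 1 and 2 are, and in the liver no omega-hydroxylase or thioesterase gene is lower, though with quantile normalization 2 are.

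Over the whole list the directions differed between the tissues, and level has to be taken into account. In the ileum 5 genes were higher and 16 lower (41.0%, against 14.5% of all genes), and in the liver 15 were higher (38.5%, against 15%) and 7 lower. Highly expressed genes had identical values less often, so the comparison was repeated in the top decile of level. In the ileum 15 genes of the list fell in that decile, of which 0 were higher and 9 lower, where 25.3% of the genes of that decile were higher and 22.1% lower. In the liver 28 fell in it, of which 10 were higher and 6 lower, where 35.8% were higher and 17.4% lower. The liver count thus lay at the share of all genes of that level. With quantile normalization the counts over the list became 17 higher and 19 lower in the ileum and 12 higher and 27 lower in the liver. With the trend by level removed (lowess) they became 7 and 23 in the ileum and 14 and 23 in the liver, since identical values then take a sign. Among differences of at least 0.01, lowess gave 4 higher and 15 lower in the ileum and 13 and 4 in the liver, as in the deposited values. Quantile normalization gave 11 and 14 of that size in the ileum and 11 and 24 in the liver. Of differences of at least 0.2 there were 3 in the liver, all higher (7.69%, against 2.2% of all genes), and 0 in the ileum (2.38% of all genes higher by that amount, 2.36% lower). Outside the like-level range were 3 of 39 genes in the liver and 0 in the ileum, where 5.05% and 5.04% of all genes were. Counts of 3 and 0 among 39 genes are near these shares and are no result about the list.

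**Figure D4:**
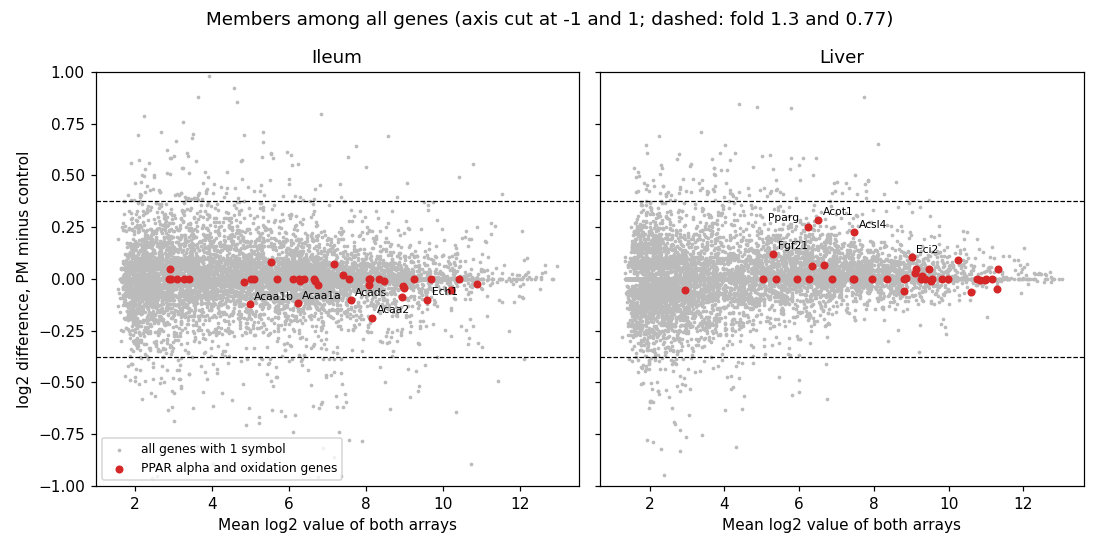
Difference of log2 values, PM minus control (y axis, drawn from -1 to 1), against the mean log2 value of both arrays (x axis) for all genes with a single symbol (gray) and the 39 genes (red) in the ileum and the liver. Members with a difference of at least 0.1 are named, and none reaches the dashed lines at fold 1.3 and 0.77.

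Few genes differed from the control group in both tissues. Of the 39, 6 were identical in both tissues (Ppard, Bdh1, Pdk4, Ehhadh, Cpt2 and Acot3), 10 differed in both, and the other 23 in 1 of them. Of the 10, 5 had the same sign and 5 the opposite. Acsl4 was higher in both, with differences of 0.079 in the ileum and 0.23 in the liver, as were Cyp4a14, which lay under the background level in the ileum, and Acot2, whose liver difference of 0.012 turned to -0.0027 with quantile normalization, while Acads (-0.10 and -0.060) and Acaa1b (-0.12 and -0.061) were lower in both.

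Related genes outside the list gave the surroundings of these values, in further lists also chosen with earlier results of these data known. Among 26 other known targets of PPARα, 4 were below 0.77 in the ileum (15.4%, against 0.744% of all genes) and none above 1.3 (0.564%). These were Fabp1, a fatty acid-binding protein, from a log2 value of 6.25 to 4.54, Creb3l3, a transcription factor of lipid genes, from 8.94 to 8.31, Retsat, retinol saturase, from 6.71 to 6.27, and Ephx2, an epoxide hydrolase, from 7.55 to 7.16. Fabp1 and Creb3l3 are also markers of the proximal intestine, whose summed signal differed between the pools as given above, and the part of that in their values was not tested. Of the same 26, 2 were above 1.3 in the liver (7.69%, against 0.541% of all genes) and none below 0.77 (0.424%). The 2 were Cyp4a12a (7.60 to 8.07) and Plin5, a lipid droplet protein (6.75 to 7.17).

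The other oxidation genes passed no threshold. Of 15 further peroxisomal genes 6 were lower and 1 higher in the ileum, against 14.5% lower and 15.7% higher among all genes. Hsd17b4, the multifunctional enzyme, went there from a log2 value of 9.05 to 8.78. In the liver 7 of the 15 were higher and 2 lower, where 15% of all genes were higher and 13.8% lower. Most of the 15 lay in the top decile of level in the liver, where 35.8% of all genes were higher and 17.4% lower. Of 16 further genes of mitochondrial oxidation and carnitine handling 3 were lower and 2 higher in the ileum, with Etfb going from 7.69 to 7.54. In the liver 4 were lower and 2 higher. The shares over all genes are those just given for each tissue. Of 4 ketone body genes, 15 further thioesterases and synthetases and 12 peroxins none passed a threshold in either tissue; Acot12 had the lowest ileum difference of these, going from 4.32 to 3.99. Of 17 coregulators and partner receptors none did either, with Esrra, an activator of mitochondrial genes, at -0.18 in the ileum and Lpin1, a coactivator of PPARα, at 0.21 in the liver.

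The position of each gene among all genes of its own array described how the list was used in each tissue. Arrays of the tissues were not on a common scale, so ranks and not log2 levels were set side by side, each for the same gene. In the control group 36 of the 39 genes ranked higher in the liver than in the ileum. In the liver 28 stood in the top decile and in the ileum 15. Cyp4a14, Acot3, Acot1, Cyp4a31 and Fgf21 lay under the background level in the ileum, so their ranks there have no order, while in the liver they stood at percentiles 99.6, 93.9, 83.3, 85.7 and 72.1. Among genes above background in both tissues, Acaa1b stood at percentiles 56.3 (ileum) and 99.3 (liver). The core enzymes Hadha (99.2 and 99.5), Hadh (99.55 and 99.62) and Acadm (98.3 and 99.7) stood near the top in both. The 3 that ranked lower in the liver were Ppard (93.7 in the ileum and 69.9 in the liver), Ppargc1a (86.6 and 79.4) and Acsl5 (98.96 and 98.02). No test was made of these ranks, each of which comes from 1 pool.

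**Figure D5:**
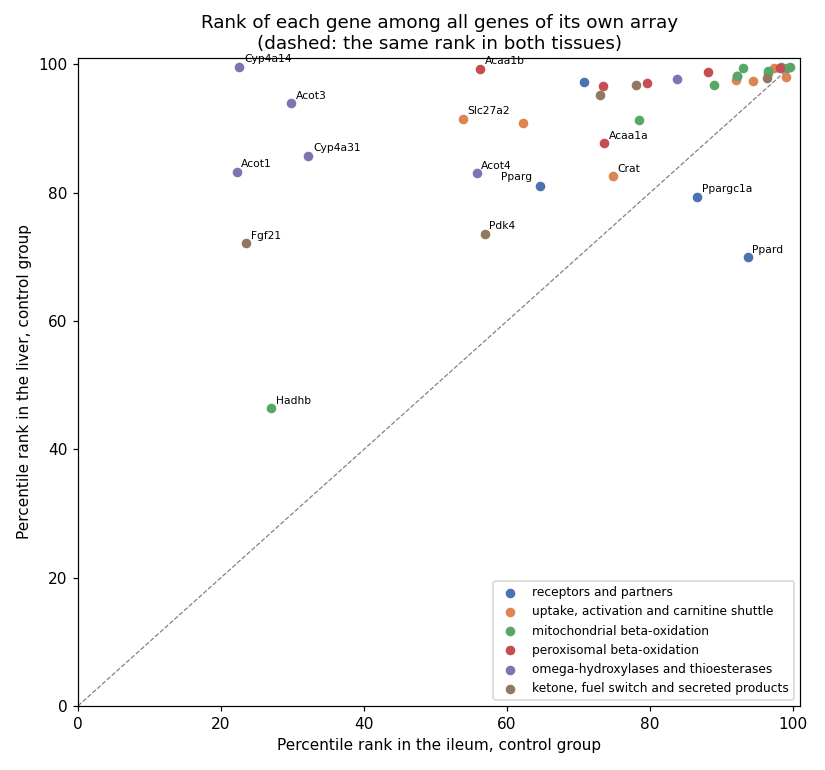
Percentile rank of each of the 39 genes among all genes of the control array of the ileum (x axis) and of the liver (y axis), colored by role. Points above the dashed line rank higher in the liver, as 36 of the 39 do, and Ppard lies farthest below it; the ileum positions of Cyp4a14, Acot1, Acot3, Cyp4a31, Fgf21 and Hadhb, under the background level there, have no order.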

How the data were processed

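Ileum and liver RNA, which the authors pooled from 10 mice per group, was hybridized to 4 Affymetrix arrays. Values deposited by the authors are on the log2 scale after robust multichip averaging; the submitters' processing notes name Expression Console 1.3. The sources used here do not say which arrays were normalized as 1 set, so comparisons were kept within a tissue. The precision is limited by the number of arrays, 1 per group.

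From these values, differences of log2 values were calculated with Python 3.11.15, numpy 2.4.6 and pandas 2.3.3. Probes were named through the platform annotation; all 42 member probes had the same RefSeq symbol (GRCm38.p6) by Entrez ID. Where a gene had several probes, their mean was taken. Background is the 95th percentile of 1383 olfactory and vomeronasal receptor probes, the higher of a tissue's arrays. Alternatives were other thresholds, the brightest probe, quantile normalization, centring, lowess (span 0.3), filters on low values and probes with several symbols. The call of thresholds was tested on simulated data. All members are named; other genes are named if past a threshold or among the 3 largest absolute differences of their list, and markers of tissue identity also otherwise. The members and lists were chosen with earlier results of these data known. Protein sequences were not used here, and RT-PCR and serum data were not analysed here.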

Additional observations from a re-analysis of the deposited data

Results flagged for a closer look

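The sign of the difference between the PM and control groups was opposite in the ileum and the liver for 5 genes, each from 1 pool per group and with no test of the difference between tissues. The log2 difference in the liver minus that in the ileum was 0.132 for Eci2, 0.126 for Etfdh, 0.101 for Acsl5, 0.062 for Slc25a20 and 0.026 for Hadh, all higher in the liver. None of these 5 lay outside the range of genes of like level in either tissue.

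The probes that name Cyp4a10 together with a neighboring gene were not used above. In the liver, the probe shared by Cyp4a10 and Cyp4a31 went from a log2 value of 10.68 to 10.76, a difference of 0.085 above the control group, and the probe shared by Cyp4a10 and Cyp4a32 from 6.76 to 6.83 (0.064). In the ileum both lay under the background level. The signal of these probes cannot be assigned to a single gene.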

How the results depend on the processing

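No gene of the list passed 1.3 or 0.77 under any alternative with those thresholds or with 1.5-fold. With a log2 difference of 0.2 as the threshold, 3 genes were higher in the liver in place of 0. The median farthest from 0 was -0.015, in the liver after quantile normalization. Of the 39 differences per tissue, none shifted by more than 0.052 with the brightest probe, quantile normalization, lowess or a floor at background. Among differences of at least 0.01, the sign turned for Slc27a2 with the brightest probe or a floor at background, and for Pex11a with quantile normalization in the ileum, where the floor also took Cyp4a14 to 0, and for Acot2 with quantile normalization in the liver. Counts of directions by role under other scalings, with the floor and without Hadhb were added after seeing the data. No paired analysis was possible because each group has 1 array. With 1 array per group, leaving out a replicate was not possible, and array noise and diet cannot be told apart at the sizes seen.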
